A study of Mus musculus with 6 samples.

Results

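The genes of the ER secretory pathway and the unfolded protein response were examined in healing flexor digitorum longus (FDL) tendons, 52 genes listed by symbol for their role in folding, sensing, translocating, exporting or retrieving secreted proteins. All 52 were found among the 53819 genes of the count table, and all 52 passed the filter on low counts, which left 17496 genes. RNA was sequenced from tendons of 3 DTR mice (Scx-Cre+; DTR F/+) and 3 WT mice (Scx-Cre-; DTR F/+), aged 10 to 12 weeks at surgery, with 1 tendon per library. Both genotypes carried the floxed diphtheria toxin receptor and both received diphtheria toxin (DT), as 5 daily local injections of 100 ng from D14 to D18 after tendon repair, so the groups differed in the Cre transgene. Scx-Cre is not inducible, and it marks every cell with a history of Scleraxis expression, the Scx lineage, in which the receptor makes DT lethal. By the study's methods harvest was at D28 post-surgery, which puts it 10 days after the last injection, while the sample titles count D28 from depletion. The libraries show the tissue after the injections and not the depletion itself.

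Secreted and membrane proteins enter the endoplasmic reticulum (ER) through the Sec61 translocon while they are made. Chaperones such as BiP and the protein disulfide isomerases fold them, COPII vesicles carry the folded cargo towards the Golgi, and KDEL receptors bring escaped ER residents back. When unfolded proteins build up, 3 sensors, IRE1, PERK and ATF6, start the unfolded protein response, in which the transcription factors XBP1, ATF4 and ATF6 act on chaperone, export and degradation genes. Tendon cells secrete large amounts of fibrillar collagen, whose precursor needs the ER's prolyl hydroxylases to fold, and whose export from the ER depends on the COPII coat and on cargo receptors of the MIA family.

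The libraries held between 42744138 and 48854310 counts on genes, and apart from Sec61g the lowest value of any member was 425 normalized counts (Sdf2l1 in WT 2), so counting error was small beside the differences between animals. Tendon markers were present in every library, with Scx between 2201 and 3063 normalized counts across the WT tendons and between 3406 and 3531 in DTR, and Tnmd between 50498 and 92191 over both groups. Transcripts of other tissues varied. A list of 25 skeletal muscle genes took 3.31, 3.01 and 2.46% of the counts across WT tendons 1 to 3 and 0.476, 2.96 and 0.843% across DTR tendons 1 to 3, and 25 of 25 were fitted lower in DTR. Keratinocyte genes took 0.298, 0.187 and 0.000984% across WT tendons 1 to 3 and 0.000966, 0.00125 and 0.0278% across DTR tendons 1 to 3. Of the 11 tested genes 11 were fitted lower in DTR, and all 11 overlapped between genotypes. Krt5 had 9333, 4390 and 4.16 normalized counts across the WT tendons and 0, 0 and 2100 in DTR. Xist was counted 49303 to 54082 times in WT 2, DTR 2 and DTR 3 and 3 or 4 times in the other libraries, so the groups were not matched for sex. Differences in bulk tissue can come from fewer cells of a type or from less RNA per cell, and these cannot be told apart here.

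Many chaperone genes are known to share control elements in their promoters, through which the unfolded protein response reaches them together. RefSeq promoters of the GRCm38.p6 assembly (250 bases before to 50 bases after the transcription start) were matched by symbol for 43 of the 52 members, and 4 motifs were searched on both strands. The ER stress response element (ERSE, CCAAT and CCACG with 9 bases of any kind between them), which ATF6 and XBP1 are known to bind, matched the promoters of 7 members, all of them chaperones or folding enzymes, out of the 12 of that group with a promoter. Over all 32851 promoters of that table the share with this motif was 0.119%. The 7 promoters are printed because they carry the element, 5′ to 3′ on the gene's strand with 20 flanking bases, and capitals mark the fixed letters of the match in either orientation.
Hspa5 (chr2:34772005-34772063, plus strand): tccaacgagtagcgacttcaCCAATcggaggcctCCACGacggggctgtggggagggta
Hsp90b1 (chr10:86705513-86705676, minus strand): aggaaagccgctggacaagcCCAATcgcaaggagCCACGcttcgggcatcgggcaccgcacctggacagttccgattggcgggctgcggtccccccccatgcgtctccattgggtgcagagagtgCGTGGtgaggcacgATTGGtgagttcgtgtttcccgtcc
Calr (chr8:84847055-84847113, minus strand): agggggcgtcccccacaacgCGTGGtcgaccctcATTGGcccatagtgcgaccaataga
Canx (chr11:50325780-50325838, minus strand): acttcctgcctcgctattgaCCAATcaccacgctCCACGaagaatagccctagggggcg
Pdia6 (chr12:17266471-17266529, plus strand): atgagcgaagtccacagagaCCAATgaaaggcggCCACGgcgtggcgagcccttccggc
Dnajc3 (chr14:118937807-118937865, plus strand): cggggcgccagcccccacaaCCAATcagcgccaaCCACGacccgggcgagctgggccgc
Creld2 (chr15:88819500-88819558, plus strand): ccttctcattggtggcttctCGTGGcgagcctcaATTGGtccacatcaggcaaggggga
Counted from the transcription start, the match lay at bases -65 to -47 in Hspa5 and -162 to -144 in Calr, while Hsp90b1 had a pair of matches in opposite orientations, the nearer one at -107 to -89.

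The other motifs were rarer among the members or missing from their windows. The unfolded protein response element (UPRE, TGACGTGG), whose end is the reverse complement of the last letters of the ERSE, matched Kdelr3, Sec24d and Sec23a, against 0.676% of all promoters. The stretches of Kdelr3 and Sec24d are printed because their matches lay before the transcription start, and capitals mark the match. In Sec23a the match lay after the start, at bases 7 to 14.
Kdelr3 (chr15:79516358-79516405, plus strand): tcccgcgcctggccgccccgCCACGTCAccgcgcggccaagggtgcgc
Sec24d (chr3:123267450-123267495, plus strand): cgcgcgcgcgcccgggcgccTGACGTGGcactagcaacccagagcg
A second ER stress element (ERSE-II, ATTGG and CCACG with 1 base of any kind between them), which shares its end with the ERSE, and the amino acid response element bound by ATF4 (CARE, TGATGCAA) matched 0 of the 43 members, against 0.0365% and 0.895% of all promoters. A match is a run of letters and was not tested as a binding site.

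The share of the module in the counts was below that of a list of 5 fibrillar collagen genes, which took 4.36 to 7.13% of a library. Together the 52 genes took 0.988, 0.970 and 1.18% of all counts across WT tendons 1 to 3 and 1.20, 1.19 and 1.17% across DTR tendons 1 to 3. Levels between genes were compared as RPKM, the counts scaled to library size and to the length of the merged exons (GENCODE vM21 gene models). P4hb, the disulfide isomerase that is also the beta subunit of collagen prolyl 4-hydroxylase, was the most abundant member in WT with 331 ± 36.6 RPKM (SD, n = 3). Calr, the lectin chaperone calreticulin, followed with 249 ± 50.6, Pdia3, the disulfide isomerase that works with it, with 205 ± 34.8, and Hspa5, which encodes BiP, with 166 ± 34.9 RPKM. The WT values of P4hb overlapped those of Calr, and those of Calr overlapped those of Pdia3, so the order among neighbours was not separated by the spread between tendons. Ssr3, a subunit of the translocon-associated protein complex, reached 154 ± 3.85 RPKM, with the smallest SD of these 5.

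**Figure D1:**
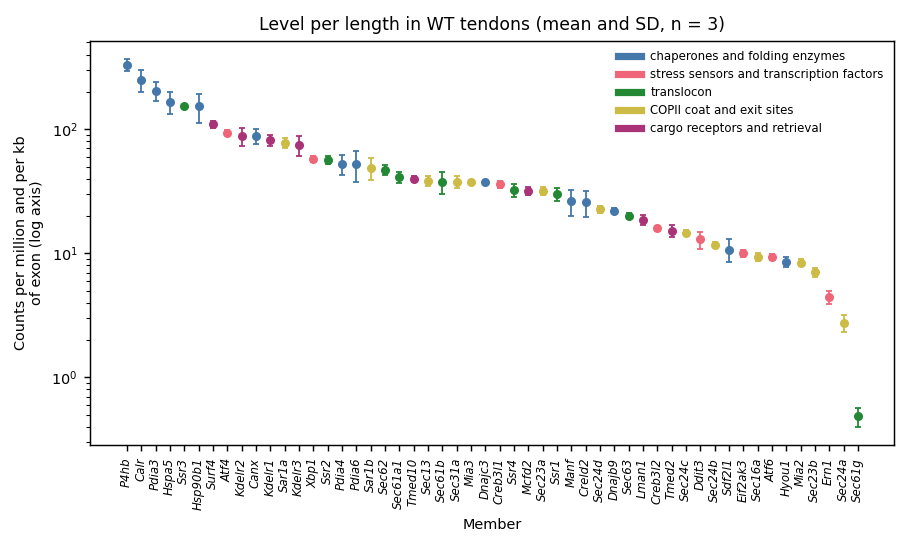
Level of each of the 52 members in the 3 WT tendons, as RPKM on a log axis, in descending order, with points for the mean, bars for the SD and colours for the role in the pathway. Chaperones and folding enzymes lead the order, P4hb at 331, while the sensor Ern1 (4.44), Sec24a (2.76) and Sec61g (0.485) stand at its end.

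Sensors sat low in this order and their transcription factors higher. On the RPKM scale in WT, Ern1, which encodes the IRE1 sensor, stood at 4.44 ± 0.524, Eif2ak3, which encodes PERK, at 9.99 ± 0.677 and Atf6 at 9.37 ± 0.565. By contrast Atf4 reached 93.8 ± 4.22 and Xbp1 57.9 ± 3.14 RPKM. Among paralogs, Sar1a exceeded Sar1b (77.9 ± 7.58 against 48.8 ± 9.80 RPKM), and Creb3l1, a transcription factor known to drive collagen secretion genes, exceeded Creb3l2 (36.0 ± 2.47 against 15.9 ± 0.767 RPKM). The 3 KDEL receptors lay close together at 81.5 ± 8.54 for Kdelr1, 88.4 ± 14.5 for Kdelr2 and 74.3 ± 13.2 for Kdelr3, and their WT values overlapped. Sec61g, the small subunit of the translocon, was the lowest at 0.485 ± 0.0853 RPKM, against 40.8 ± 4.23 for Sec61a1. Of the 50-base stretches of its transcripts, 14.8% also occurred in other genes, as did 17.4% for Sec61b and 22.0% for Tmed2, so how the authors' counting assigned such reads limits those 3 levels.

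The comparison of DTR with WT addressed how the tissue differed after DT was given to deplete Scx lineage cells. How many of these cells were lost is not known, since the paper lists unmeasured depletion efficiency as a limitation. Most members were fitted slightly higher in DTR. In edgeR's quasi-likelihood fit, 46 of 52 members (88.5%) were higher and 6 lower, against 51.5% higher and 48.5% lower among all tested genes, and the median log2 fold change was 0.19 against 0.0082. Differences were small, from -0.36 for Sar1b to 0.54 for Sec61g. No member was called at an adjusted p under 0.05 by edgeR, where the background was 0% of all genes, and the smallest adjusted p among members was 0.293. At an unadjusted p under 0.05 there were 8 members higher (Eif2ak3, Ssr3, Sec13, Sec24a, Sec24d, Kdelr2, Kdelr3 and Lman1) and 0 lower, where 5.52% of all genes passed as higher and 5.45% as lower. DESeq2 called 1 member, Lman1, as higher and 0 as lower, against 1.12% and 1.53% of all genes, and limma-voom called 0. The values of all 3 DTR tendons lay above all 3 WT tendons for 13 members and below for 0, against 8.96% and 7.85% of all genes, and the other 39 overlapped. Overlap is given on the normalized counts and depends on the scaling. On the RPKM scale, Eif2ak3, Sec24a, Kdelr3 and Surf4 of those 13 overlapped.

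**Figure D2:**
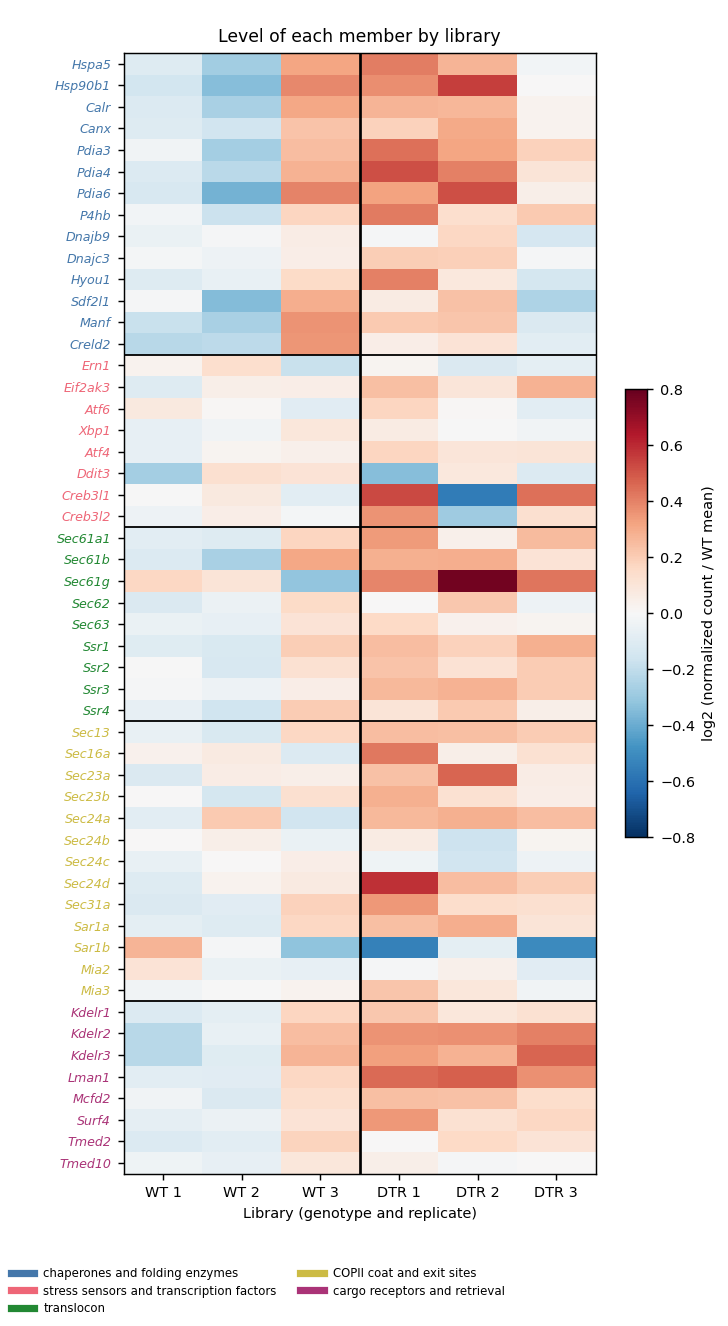
Level of each of the 52 members in each library, as the log2 of its normalized count over the WT mean, with red above and blue below that mean and horizontal lines between the 5 role groups. WT 3 is redder than WT 1 and WT 2 in all 14 chaperones, DTR 3 is the lowest DTR library in 13 of them, and Creb3l1 stands out in DTR 2.

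All 14 chaperones and folding enzymes were fitted higher in DTR, with a median log2 fold change of 0.18. All 14 also overlapped between genotypes, and 0 passed an unadjusted p under 0.05, counts that in a group of this size lie near the shares over all genes (8.96% with all DTR above all WT, 5.52% at that p as higher). Their mean log2 level over the WT mean was -0.08, -0.20 and 0.27 across WT tendons 1 to 3 and 0.29, 0.29 and 0.0068 across DTR tendons 1 to 3. WT 3 was therefore nearly as high as DTR 1 and DTR 2, and DTR 3 lay close to the WT mean. The keratinocyte share of the counts was also lowest in WT 3, DTR 1 and DTR 2 (0.000984, 0.000966 and 0.00125%). Its part in these values was not tested. WT 3 was the highest WT library in 14 of 14 chaperones, against 36.5% of all genes, and DTR 3 the lowest DTR library in 13 of 14, against 29.5%. The median SD of log2 values among the WT tendons was 0.279 for this group, compared with 0.164 for all genes and 0.083 for the sensors and transcription factors.

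Hspa5, the chaperone BiP that binds the 3 stress sensors, had 29760, 26440 and 39878 normalized counts across the WT tendons and 42483, 38746 and 31528 in DTR, which gave a log2 fold change of 0.23 ± 0.19 (SE, adjusted p = 0.657). Hsp90b1, which encodes the chaperone GRP94, had 25334, 22158 and 36512 in WT and 36192, 41056 and 28060 in DTR (log2 fold change 0.33 ± 0.22, adjusted p = 0.600). In both genes the highest WT tendon exceeded the lowest DTR tendon, and these were WT 3 and DTR 3 each time. Pdia4, a disulfide isomerase, had the lowest unadjusted p of the group, with 5310, 4925 and 6959 normalized counts across the WT tendons and 8187, 7563 and 6150 in DTR (log2 fold change 0.35 ± 0.16, adjusted p = 0.473). Pdia3 counted 28792, 24292 and 34803 in WT and 39686, 36462 and 33251 in DTR, a log2 fold change of 0.32 ± 0.16 (adjusted p = 0.489). P4hb was at 42428, 38172 and 48536 in WT and 57408, 47193 and 49769 in DTR, with a log2 fold change of 0.26 ± 0.14 (adjusted p = 0.524). In these 3 disulfide isomerases WT 3 again reached into the range of the DTR tendons.

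The remaining 9 members of the group had fold changes between 0.01 and 0.30 on the log2 scale. Calr (0.19), its membrane-bound relative Canx (0.18) and the disulfide isomerase Pdia6 (0.30) were fitted higher than the co-chaperones Dnajc3 and Hyou1 (both 0.13). Manf, a secreted ER stress protein (0.11), Sdf2l1 and Creld2 (both 0.03) and the BiP co-chaperone Dnajb9 (0.01) differed least. Dnajb9, a well-known target of XBP1, had 2563 ± 102 normalized counts across the WT tendons and 2587 ± 267 in DTR (SD, n = 3), with an interval of the log2 fold change from -0.21 to 0.24. Among the 7 chaperones with an ERSE in the promoter the median log2 fold change was 0.19, with a range of 0.03 to 0.33, and among the 5 without a match (Pdia3, Pdia4, P4hb, Dnajb9 and Sdf2l1) it was 0.26, with a range of 0.01 to 0.35. Their median WT SD on the log2 scale was 0.305 and 0.259. The pair of ranges overlapped almost entirely, and this split was made after the values had been seen.

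**Figure D3:**
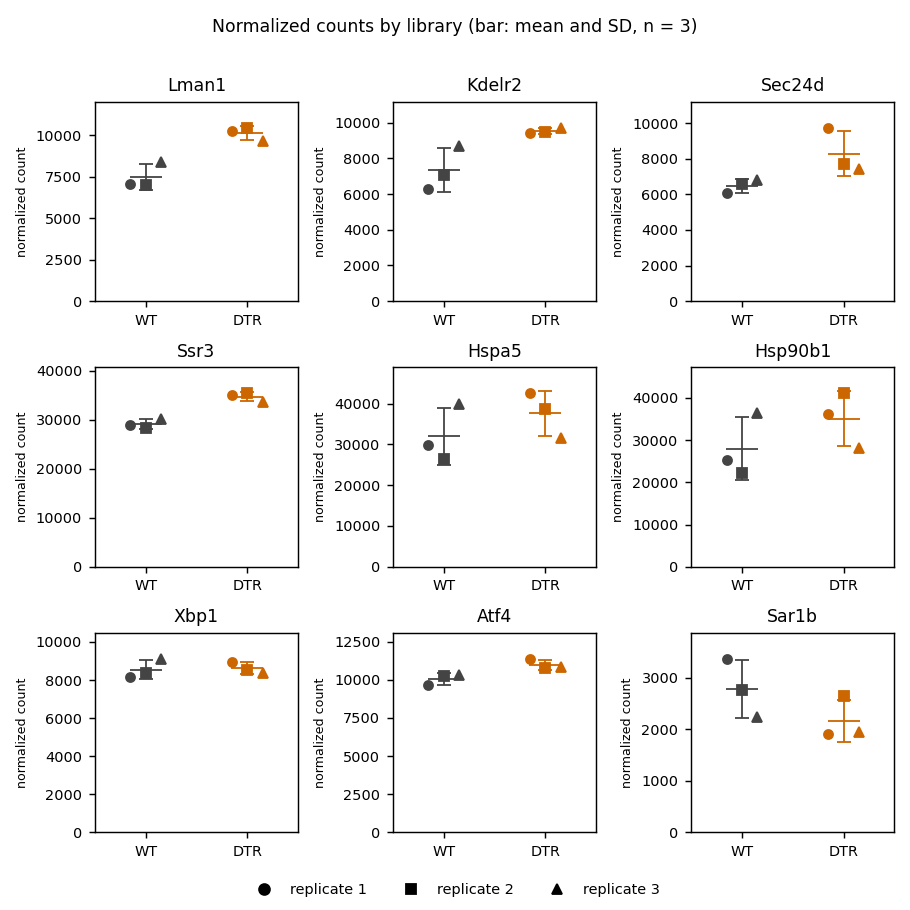
Normalized counts of 9 members in each library, with circles, squares and triangles for replicates 1 to 3 and bars for the mean and SD (n = 3 per genotype, axes from 0). Lman1, Kdelr2, Sec24d, Ssr3 and Atf4 do not overlap between genotypes, while Hspa5, Hsp90b1, Xbp1 and Sar1b do.

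The stress sensors and transcription factors hardly differed, with 6 of 8 fitted higher, a median log2 fold change of 0.06 and 1 of 8 at an unadjusted p under 0.05, a count near the 5.52% of all genes that passed as higher. Eif2ak3, the PERK kinase that phosphorylates eIF2 alpha, was that gene. It counted 2547, 2827 and 2840 in WT and 3234, 2934 and 3315 in DTR after normalization (log2 fold change 0.21 ± 0.09, adjusted p = 0.452), so all DTR tendons lay above all WT tendons. Atf4, the transcription factor translated when eIF2 alpha is phosphorylated, also did not overlap, with 9624, 10224 and 10338 in WT and 11351, 10777 and 10818 in DTR (log2 fold change 0.13 ± 0.09, adjusted p = 0.597). Ddit3, which encodes the pro-apoptotic factor CHOP downstream of ATF4, overlapped, with 835, 1102 and 1086 in WT and 794, 1068 and 936 in DTR (log2 fold change -0.11 ± 0.15, adjusted p = 0.813). Its ranges in the genotypes were nearly the same.

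The other sensors and their factor were nearly level. Ern1, the IRE1 kinase and RNase that splices Xbp1 mRNA, had 1677, 1807 and 1458 normalized counts across the WT tendons and 1676, 1520 and 1562 in DTR (log2 fold change -0.05 ± 0.10, adjusted p = 0.875). Xbp1 itself had 8168, 8389 and 9099 in WT and 8957, 8535 and 8378 in DTR (log2 fold change 0.01 ± 0.09, 95% interval -0.19 to 0.21, adjusted p = 0.972). Atf6, the sensor that is cleaved in the Golgi, had 4144, 3963 and 3692 in WT and 4427, 3953 and 3706 in DTR (log2 fold change 0.03 ± 0.09, adjusted p = 0.919). All 3 overlapped, and the upper bounds of their intervals were 0.18, 0.21 and 0.26 on the log2 scale, against the median of 0.19 over the members. Gene counts hold neither the splicing of Xbp1 nor the translation of Atf4 nor the cleavage of Atf6, so the activity of the response was not measured.

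Creb3l1, whose protein is released from the ER membrane like ATF6 and drives collagen secretion genes, had the widest spread among DTR tendons of any member of its group. WT tendons had 4252, 4499 and 4018 normalized counts, while DTR 1 and DTR 3 had 6143 and 5789 and DTR 2 had 2883. DTR 2 was below every WT tendon and the other DTR tendons above, so that the fitted log2 fold change of 0.21 ± 0.28 (adjusted p = 0.811) averages over values on both sides of WT. Without DTR 2, edgeR fitted 0.49 and called the gene (adjusted p = 0.0388), where 0.572% of all genes were called higher and 2.45% lower. It was the only member called in that fit. Creb3l2, its paralog, had 5106, 5455 and 5188 in WT and 6723, 4312 and 5747 in DTR (log2 fold change 0.09 ± 0.15, adjusted p = 0.857), with DTR 2 again the lowest library.

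The collagen cargo had the same order among the DTR tendons. Col1a1 counted 454158, 495276 and 527433 in WT and 766467, 434832 and 647953 in DTR after normalization (log2 fold change 0.32, adjusted p = 0.618). Col1a2 counted 711849, 716095 and 813650 in WT and 1130480, 743560 and 930630 in DTR (0.32, adjusted p = 0.577). Col3a1 reached 670917, 600798 and 723990 in WT and 1233280, 799660 and 873489 in DTR (0.54, adjusted p = 0.447). In all 3 collagen genes DTR 1 was the highest and DTR 2 the lowest DTR library, though Col3a1 in DTR 2 still exceeded every WT tendon. DTR 2 was also the DTR library with a muscle share like that of WT, at 2.96% of counts against 0.476% in DTR 1 and 0.843% in DTR 3. With the log2 muscle share as a covariate, the fitted log2 fold change of Creb3l1 turned to -0.47, that of Creb3l2 to -0.27 and that of Col1a1 to -0.17, while Col1a2 was at -0.027 and Col3a1 at 0.21, and the part of muscle in these values was not tested beyond this fit.

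**Figure D4:**
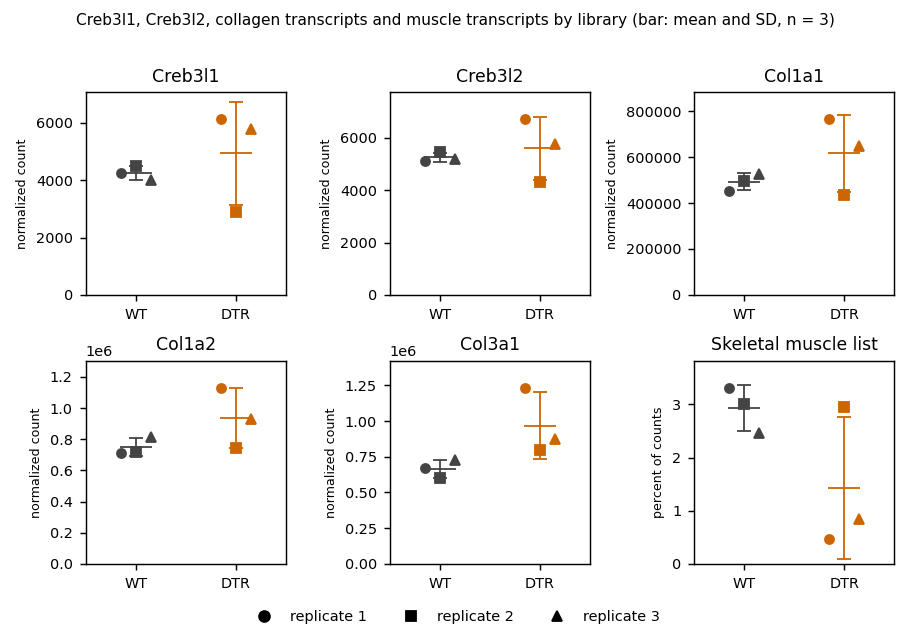
Normalized counts of Creb3l1, Creb3l2 and 3 fibrillar collagen genes, and the percent of counts on 25 skeletal muscle genes, in each library, with bars for the mean and SD (n = 3 per genotype, axes from 0). DTR 2 (square) is the lowest DTR library in all 5 genes, at 2883 for Creb3l1, and the highest in muscle transcripts at 2.96%.

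The translocon genes were higher in DTR in all 9 fitted values, against 51.5% of all genes, with a median log2 fold change of 0.22. In 2 of 9 all DTR tendons lay above all WT tendons, a count that in a group of this size lies near the 8.96% of all genes. Ssr3 (TRAP gamma), a subunit of the complex that helps chains enter the channel, had 28906, 28329 and 30216 normalized counts across the WT tendons and 34955, 35333 and 33592 in DTR, a gap between groups wider than the range within either (log2 fold change 0.25 ± 0.10, adjusted p = 0.452). Ssr1 (TRAP alpha) had 13228, 13008 and 16205 in WT and 16763, 16062 and 17243 in DTR (0.24 ± 0.12, adjusted p = 0.486). Ssr2 (TRAP beta) had 4770, 4373 and 5187 in WT and 5594, 5169 and 5492 in DTR (0.18 ± 0.09, adjusted p = 0.488). WT 3 was the single WT library that reached the DTR range in Ssr1 and Ssr2. Sec61g had the largest fitted difference of all members, with 60.9, 58.4 and 43.6 normalized counts across the WT tendons and 71.1, 92.8 and 72.9 in DTR (0.54 ± 0.27, adjusted p = 0.489), and a wide interval, from -0.08 to 1.16.

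The channel itself and its partners lay close to the group median or under it. Sec61a1, the channel-forming subunit, had a log2 fold change of 0.22 and Sec61b one of 0.23, while Ssr4 was at 0.12. The auxiliary subunits Sec62 and Sec63, which serve proteins that enter after translation, were at 0.06 and 0.07. All 5 overlapped between genotypes.

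Of the COPII genes, 9 of 13 were fitted higher and 4 lower, against 51.5% and 48.5% of all genes. Sec24d, a cargo-binding subunit of the inner coat that is known to be needed for collagen export, had 6052, 6609 and 6810 normalized counts across the WT tendons and 9744, 7697 and 7428 in DTR (log2 fold change 0.35 ± 0.12, adjusted p = 0.402). Sec24a had 1260, 1549 and 1202 in WT and 1599, 1627 and 1590 in DTR (0.26 ± 0.11, adjusted p = 0.452). Neither overlapped, whereas the other 2 paralogs of this subunit were fitted at -0.02 (Sec24b) and -0.07 (Sec24c) with overlap. Sec13, of the outer coat, had 5333, 5101 and 6216 in WT and 6592, 6562 and 6388 in DTR (0.23 ± 0.10, adjusted p = 0.452). Its partner Sec31a, the most abundant member of this group by normalized count, had 12446, 12683 and 15312 in WT and 17164, 14849 and 14702 in DTR (0.21 ± 0.12, adjusted p = 0.542). Sec13 did not overlap, while in Sec31a WT 3 exceeded DTR 2 and DTR 3.

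Sar1b, a GTPase that starts coat assembly, had the largest fitted decrease of any member, at 3357, 2767 and 2229 in WT and 1912, 2636 and 1952 in DTR (log2 fold change -0.36 ± 0.18, adjusted p = 0.503). DTR 2 lay within the WT range, and the log2 fold change was -0.20 without WT 1 and -0.06 with the muscle share as a covariate. Its paralog Sar1a went the other way, at 12561, 12366 and 14852 in WT and 15682, 16225 and 14252 in DTR (0.21 ± 0.11, adjusted p = 0.509). The log2 ratio of Sar1b to Sar1a was -1.90, -2.16 and -2.74 in WT and -3.04, -2.62 and -2.87 in DTR, a mean difference of -0.58 (two-sided exact permutation p = 0.2, adjusted over 5 paralog pairs p = 0.5). With 3 tendons against 3 the smallest p of this test was 0.1, and the pairs were chosen after the values had been seen. Sec23a (0.26) did not overlap, by a narrow gap of 7294 in WT 2 against 7307 in DTR 3. Sec23b did (0.16), and so did Sec16a, the scaffold of ER exit sites (0.21). Mia3 and Mia2, which encode the TANGO1 and cTAGE5 receptors that guide collagen into carriers, were at 0.10 and -0.02 with overlap.

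The cargo receptors and retrieval receptors were the most separated role group. In 5 of 8 all DTR tendons lay above all WT tendons, against 8.96% of all genes. Of these 5, Kdelr3 (88.9 in WT 3 against 87.3 in DTR 1) and Surf4 (118 in WT 3 against 116 in DTR 2) overlapped on the RPKM scale. All 8 were fitted higher, against 51.5% of all genes, with a median log2 fold change of 0.21. Their mean log2 level over the WT mean was -0.10, -0.07 and 0.18 across WT tendons 1 to 3 and 0.26, 0.22 and 0.23 across DTR tendons 1 to 3, so that WT 3 came close to the DTR tendons without passing them. Lman1, also known as ERGIC-53, a lectin receptor that carries glycoproteins out of the ER, had 7064, 7025 and 8387 normalized counts across the WT tendons and 10248, 10448 and 9659 in DTR. The DTR mean was 10119 ± 410 against 7492 ± 775 in WT (SD, n = 3), 35.1% higher in the fit, with a log2 fold change of 0.43 ± 0.10 and a 95% interval of 0.20 to 0.67. Its adjusted p was 0.293 with edgeR and 0.0157 with DESeq2, the latter the single call by that tool among the members. Mcfd2, the calcium-binding partner of Lman1, had 4117 ± 366 in WT and 4754 ± 180 in DTR without overlap (0.21 ± 0.09, adjusted p = 0.460).

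Retrieval receptors followed Lman1. Kdelr2 had 6302, 7052 and 8715 normalized counts across the WT tendons and 9436, 9461 and 9720 in DTR (log2 fold change 0.37 ± 0.13, adjusted p = 0.393). Kdelr3 had 4091, 4459 and 5751 in WT and 5980, 5773 and 6589 in DTR (0.36 ± 0.14, adjusted p = 0.429). Both were without overlap, although the gap between WT 3 and the lowest DTR tendon was narrow for Kdelr3. Kdelr1 was fitted at 0.14 and overlapped, and the log2 ratio of Kdelr2 to Kdelr1 was 0.24 higher in DTR (two-sided exact permutation p = 0.1, the smallest possible, adjusted p = 0.5 over the 5 pairs). Surf4, a cargo receptor for many soluble proteins, had 15583, 15885 and 17708 in WT and 20810, 17806 and 18354 in DTR (0.21 ± 0.11, adjusted p = 0.506), with DTR 2 just above WT 3. The p24 cargo adaptors Tmed2 and Tmed10 were at 0.09 and 0.01 with overlap.

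**Figure D5:**
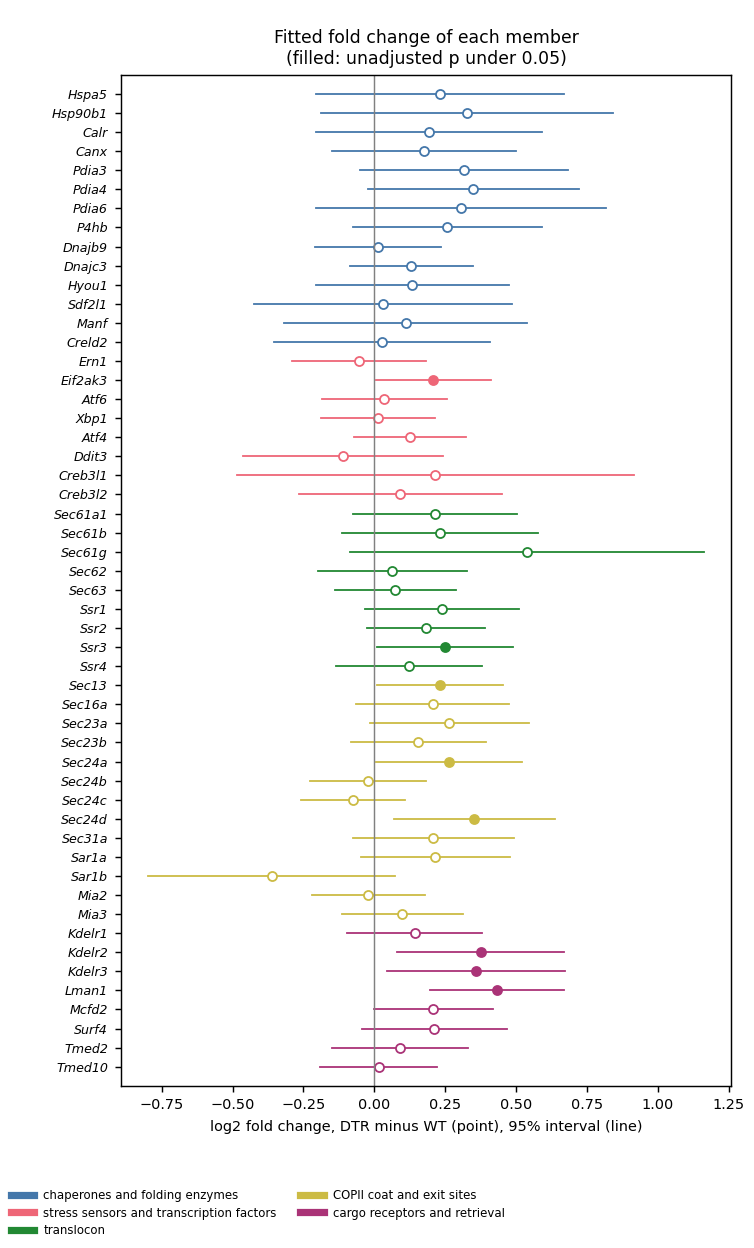
Log2 fold change of each of the 52 members, DTR minus WT, as points with 95% intervals from edgeR's quasi-likelihood fit on 3 libraries per genotype, coloured by role and filled where the unadjusted p is under 0.05. Points lie right of 0 for 46 members, 8 are filled, and the interval of Lman1 runs from 0.20 to 0.67.

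Neighbouring pathways were counted on lists of their own, to be read against all genes, of which 51.5% were fitted higher, 5.52% passed an unadjusted p under 0.05 as higher and DESeq2 called 1.12% higher and 1.53% lower. COPI, the coat of vesicles that return from the Golgi to the ER, had 12 of 12 genes fitted higher with a median log2 fold change of 0.21 and 5 at an unadjusted p under 0.05. They included the coat subunits Copb1 (0.27, adjusted p = 0.420) and Arcn1 (0.26, adjusted p = 0.429), while Copa, the most abundant, was at 0.18. The oxidative folding enzymes and co-chaperones had 15 of 15 fitted higher with a median of 0.18 and 6 at an unadjusted p under 0.05. Pdia5, a disulfide isomerase, had 936, 891 and 1161 normalized counts across the WT tendons and 1591, 1271 and 1460 in DTR (log2 fold change 0.53 ± 0.13, adjusted p = 0.307 with edgeR and 0.0367 with DESeq2). Txndc5, a related enzyme, had 11686, 11721 and 14329 in WT and 18219, 15787 and 16720 in DTR (0.43 ± 0.12, adjusted p = 0.347 with edgeR and 0.0397 with DESeq2). Both were without overlap, and DESeq2 called both. Ppib, the collagen prolyl isomerase cyclophilin B, was the most abundant of this list and was at 0.18 with overlap.

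N-glycosylation and glycan quality control had 15 of 16 genes fitted higher, with a median of 0.16 and 1 at an unadjusted p under 0.05, the oligosaccharyltransferase subunit Tusc3 (0.26, adjusted p = 0.372). Ganab, a glucosidase that trims new glycans, was at 0.20 without overlap, and Rpn1, a further oligosaccharyltransferase subunit, at 0.21. Signal recognition and signal peptidase genes had 11 of 13 fitted higher with a median of 0.10 and 0 at that level, and Sec11a, the peptidase's catalytic subunit, was at 0.21, with Srp72 and Srpr both at 0.16. DESeq2 called 0 genes of either list.

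The degradation and stress response lists lay nearest to the background. ER-associated degradation had 13 of 18 genes fitted higher with a median of 0.03, and 2 of 18, the mannosidase-like Edem3 (0.25, adjusted p = 0.441) and the ubiquitin-conjugating enzyme Ube2j1 (0.21, adjusted p = 0.434), passed an unadjusted p under 0.05. Vcp, the ATPase that extracts proteins from the membrane, was at 0.08. The integrated stress response list held target genes of ATF4 and CHOP beside other genes of that response, such as Ppp1r15b, Cebpb and Cebpg. It had 9 of 18 fitted higher and 9 lower with a median of 0.0050 and 0 at an unadjusted p under 0.05. Chac1, a glutathione-degrading enzyme and a sensitive target of this arm, had 283, 205 and 101 normalized counts across the WT tendons and 127, 116 and 124 in DTR (log2 fold change -0.68 ± 0.36, adjusted p = 0.506). Slc7a11, the cystine transporter, had 230, 214 and 97.7 in WT and 1295, 249 and 219 in DTR, so that its fitted log2 fold change of 1.70 ± 0.87 (adjusted p = 0.520) fell to 0.37 without DTR 1. Nupr1 was the most abundant gene of the list and was fitted at -0.06.

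Cells specialised in secretion, such as plasma cells, express much of the pathway, so their markers were read beside it. The list of plasma and B cell genes took 0.0228 to 0.0252% of the counts in WT and 0.0190 to 0.0233% in DTR, and 9 of its 11 tested genes were fitted lower in DTR with a median log2 fold change of -0.48. Most of this share was Sdc1, at 7782 to 8126 normalized counts in WT and 6095 to 8573 in DTR. Ighg2c had 20.3, 153 and 92.5 in WT and 5.15, 8.61 and 5.14 in DTR. Its log2 fold change was -3.79 (adjusted p = 0.274 with edgeR and 3.3e-05 with DESeq2). Jchain, the joining chain of secreted immunoglobulin, was between 79.1 and 124 normalized counts across the WT tendons and between 17.5 and 184 in DTR, and none of the tested markers was at 0 in any library. Macrophage genes took 0.384 to 0.464% in WT and 0.411 to 0.451% in DTR, with 5 of 12 fitted higher. Endothelial genes had 1 of 8 fitted higher with a median of -0.11, and adipocyte genes 0 of 8 with a median of -2.32. A list of 10 tendon cell genes took 3.81, 4.18 and 4.49% in WT and 5.56, 4.28 and 5.30% in DTR, with 8 of 10 fitted higher. The tendon list thus moved in the same direction as the members, and its part in their values was not tested.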

How the data were processed

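RNA was sequenced from 1 FDL tendon of each of 3 DTR and 3 WT mice. Per the study's methods, single-end reads were cleaned with FastP and assigned to genes by featureCounts, and the authors deposited the whole-number counts. A second deposited table is a signal: the same counts divided by 1 size factor per library (0.973 to 1.06, checked column by column). Its values entered an alternative fit only. The normalized counts given per library were instead scaled by edgeR, with its TMM factors, to the mean library size. The submitters' processing notes name DESeq2 1.22.1. The aligner, genome build, annotation and strand setting of the counting are not given in the sources used here, so members that overlap other genes (up to 12.8% of exon bases on the opposite strand, in Ssr2) are uncertain. The labels name a stranded kit and a SMARTER kit, and their titles count the 28 days from depletion where the methods count from surgery. Columns were matched to samples by the labels.

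In R 4.3.3, edgeR 4.0.16 (TMM, filterByExpr, robust quasi-likelihood fit, genotype as the term) tested 17496 genes, with Benjamini and Hochberg adjustment over all of them and a threshold of 0.05. Fold changes are on the log2 scale. Replicates were separate animals, and their counts differed far beyond sampling noise (chi-square per degree of freedom 26.4 to 136). Alternatives were DESeq2 1.42.0, limma 3.58.1 (voom, and log2 of the deposited normalized count + 1) and other normalizations and filters. Further ones were a replicate block, each library left out, removal of muscle genes, and terms for muscle share or sex. RPKM used merged exons of GENCODE vM21 matched by symbol, and promoters came from RefSeq. The members, role groups and other lists were chosen with earlier results of these data known. Values in every library are given for the sensors and transcription factors, for the 3 members with the lowest unadjusted p and the most abundant member of each other role group, for the members with the largest fold change in each direction, and, chosen after the values were seen, for Hspa5, Hsp90b1 and Sar1a. In each other pathway list the 2 genes with the lowest unadjusted p and the most abundant one are named. Ero1a and Ero1b were counted once, since their older symbols were not listed.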

Additional observations from a re-analysis of the deposited data

How the results depend on the processing

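The median log2 fold change of the 52 members stayed above 0 under all 18 alternatives, from 0.11 with the muscle share as covariate to 0.24 without WT 3, and leaving out 1 library gave 0.12 to 0.24. The value without WT 2 was 0.12. edgeR called 0 members with all libraries, DESeq2 called 1 (Lman1), and leaving out 1 library gave 0 to 1, the 1 being Creb3l1 without DTR 2. Members at an unadjusted p under 0.05 and higher numbered 8 with all libraries, 22 without WT 3, 1 without WT 1, 3 without WT 2, 2 without DTR 1, 4 without DTR 3, 12 with the sex term and 2 with the muscle covariate, where 2 (Creb3l1 and Creb3l2) were lower. The translocon median was 0.22 and ran from 0.12 (without WT 2) to 0.27 when 1 library was left out. The COPII median was 0.21 and ran from 0.084 (without DTR 1) to 0.25, and was 0.075 with the muscle covariate. The chaperone median ran from 0.11 to 0.34 when 1 library was left out, and that of the cargo receptors from 0.16 to 0.27 over all alternatives. The log2 fold change of Lman1 ran from 0.39 to 0.52, with adjusted p from 0.0157 to 0.838.

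Of 45 named genes, 36 kept their sign in every alternative. Leaving out 1 library gave -0.14 to 0.018 for Ern1, -0.043 to 0.093 for Atf6 and -0.020 to 0.057 for Xbp1. Xbp1 turned to -0.016 with library size normalization, -0.019 without WT 1, -0.0012 without WT 2, -0.020 without DTR 1 and -0.030 with the muscle covariate. Atf6 turned to -0.011 without WT 3, -0.043 without DTR 1 and -0.016 with the muscle covariate, Creb3l2 to -0.066 without DTR 1 and -0.27 with the covariate, Ern1 to 0.018 without WT 2 and Nupr1 to 0.0082 without WT 3. With the muscle covariate Ddit3 was 0.067, Creb3l1 -0.47, Col1a1 -0.17 and Col1a2 -0.027. The cause was not tested.

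Samples of the same number did not deviate together (correlations of -0.25, -0.21 and -0.73 for replicates 1 to 3). With so few tendons these values cannot exclude that a number stands for a shared batch. The main fit did not use the numbers as pairs. With the replicate block edgeR called 0 members, 5 passed an unadjusted p under 0.05 as higher, and the median was 0.18. Without a filter on low counts edgeR called 45 genes higher and 38 lower, 0 of them members.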
